A study of Mus musculus with 6 samples.

Results

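The clustered Hox genes encode the homeodomain transcription factors of the Hoxa, Hoxb, Hoxc and Hoxd clusters. Here they are the probes whose annotated symbol is Hoxa, Hoxb, Hoxc or Hoxd followed by a number from 1 to 13, whatever their signal. The rule found 57 of the 45281 probes on the array, for 38 of the 19057 genes it names: 19 probes for 10 Hoxa genes, 15 for 10 Hoxb genes, 11 for 9 Hoxc genes and 12 for 9 Hoxd genes. Of the 38 genes, 25 had 1 probe, 9 had 2, 2 had 3, and Hoxa3 and Hoxb3 had 4.

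The KO group was 3 mouse embryos with the genotype Fgfr2 fx/fx and Le-Cre, a transgene in which ectodermal Pax6 regulatory sequence drives Cre in the lens and ocular surface ectoderm. The WT group was 3 wild type embryos. Both groups were on a mixed FVB and 129 background at E14.5, and each sample was laser-dissected conjunctival epithelium of the fornix from 1 embryo. RNA was amplified from a very small input and each embryo was hybridised to 1 array, all 6 on the same Illumina BeadChip. Only KO embryos carried Le-Cre, so loss of Fgfr2 and presence of the transgene cannot be told apart.

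Hox genes give cells of the trunk and hindbrain their position along the body axis. Within a cluster they lie in the order in which they are used from head to tail, and genes with the same number in different clusters are paralogues. The surface ectoderm over the eye and the neural crest that forms the mesenchyme around it arise in front of the Hox domains, and there the clusters are known to be held silent by Polycomb proteins. HOX proteins bind DNA together with TALE homeodomain cofactors of the MEIS and PBX families.

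Cluster promoters are shown because CpG-rich DNA is the usual site of Polycomb recruitment, and the count of CG dinucleotides can be set beside detection. The RefSeq promoter table (GRCm38.p6) held 22 of the 38 genes as windows of 300 bases that run from upstream of each start to just past it, all given 5′ to 3′ on the gene's strand. Hoxc10 was among the genes with no entry. Capitals mark CG dinucleotides. Hoxa13 had the highest count of the 22, Hoxa5 was CG-rich and never detected, Hoxa7 was the Hox gene detected in every WT embryo, and Hoxa9 stood out in 1 embryo.
Hoxa13 promoter, chr6:52260831-52261130, minus strand, 45 CG: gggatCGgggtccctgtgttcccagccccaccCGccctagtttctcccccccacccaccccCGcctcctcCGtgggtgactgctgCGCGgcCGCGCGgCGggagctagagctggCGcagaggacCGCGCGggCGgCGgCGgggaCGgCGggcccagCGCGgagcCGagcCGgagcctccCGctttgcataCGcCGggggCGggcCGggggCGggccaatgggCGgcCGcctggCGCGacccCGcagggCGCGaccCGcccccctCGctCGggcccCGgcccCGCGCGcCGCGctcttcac
Hoxa5 promoter, chr6:52204538-52204837, minus strand, 29 CG: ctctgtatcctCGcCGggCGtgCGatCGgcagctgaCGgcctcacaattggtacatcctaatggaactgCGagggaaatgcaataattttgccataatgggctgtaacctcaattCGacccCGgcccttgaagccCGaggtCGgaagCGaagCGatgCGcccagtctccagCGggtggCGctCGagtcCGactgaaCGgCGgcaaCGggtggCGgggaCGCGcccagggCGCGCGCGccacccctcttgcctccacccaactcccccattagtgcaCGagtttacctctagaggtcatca
Hoxa7 promoter, chr6:52218524-52218823, minus strand, 9 CG: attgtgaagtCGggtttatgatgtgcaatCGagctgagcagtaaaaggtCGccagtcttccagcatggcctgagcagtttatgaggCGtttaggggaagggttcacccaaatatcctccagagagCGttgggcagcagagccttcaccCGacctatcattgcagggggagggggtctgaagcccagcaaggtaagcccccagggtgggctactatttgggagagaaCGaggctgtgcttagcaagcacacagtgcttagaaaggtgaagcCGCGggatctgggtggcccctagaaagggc
Hoxa9 promoter, chr6:52227321-52227620, minus strand, 4 CG: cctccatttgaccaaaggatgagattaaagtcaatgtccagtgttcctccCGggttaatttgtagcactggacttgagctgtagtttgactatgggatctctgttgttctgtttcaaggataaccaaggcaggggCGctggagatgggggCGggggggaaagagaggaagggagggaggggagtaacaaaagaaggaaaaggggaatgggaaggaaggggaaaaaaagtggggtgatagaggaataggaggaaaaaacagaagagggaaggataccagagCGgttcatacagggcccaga

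Hox promoters carried a median of 13.5 CG dinucleotides per 300 bases (quartiles 9 and 21.5, range 4 to 45). Promoters of other genes detected on all 6 arrays had a median of 22 (n = 4506), and those of genes detected on no array had a median of 4 (n = 4232). The upper quartile of the undetected genes was 10, below the Hox median. Over all genes on the array the median was 15 (n = 15237), above the Hox median, with a GC content of 57.3%. Homeobox genes of the head outside the clusters had a median of 20 (n = 18). The median GC content was 56.8% for Hox promoters, 61.7% for promoters of genes detected on all arrays and 49.3% for those of genes never detected. Within the set, the CG count did not sort the detected genes from the rest: Hoxa13, Hoxd13 (37 CG), Hoxa7 and Hoxa9 were each detected on at least 1 array, while Hoxa5 and Hoxd1 (29 CG each) and Hoxd4 (4 CG) were detected on none.

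**Figure D1:**
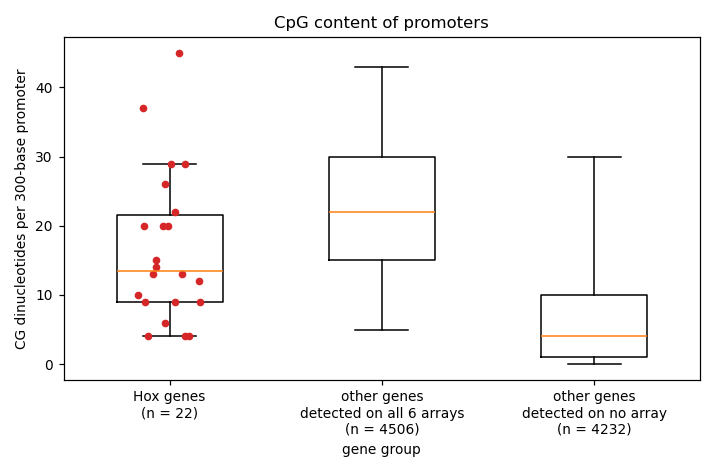
CG dinucleotides per 300-base promoter for Hox genes (red points, n = 22) and for other genes detected on all 6 arrays or on none. Boxes span the quartiles with the median, and whiskers run from the 5th to the 95th percentile; the Hox median of 13.5 lies between the medians of 22 and 4.

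Detection was read from the Illumina detection p-value, the share of negative control beads at least as bright as the probe, so that about 5% of probes with no target pass a threshold of 0.05. KO arrays A, B and C had 5, 4 and 5 detected Hox probes of 57 (8.77%, 7.02% and 8.77%). WT arrays A, B and C had 4, 3 and 4 (7.02%, 5.26% and 7.02%). The means were 4.67 ± 0.577 probes in KO and 3.67 ± 0.577 in WT (SD, n = 3 each), a difference of 1 probe. Over all probes the detected share was 34.6% ± 0.319 on KO arrays and 49.5% ± 1.04 on WT arrays. The Hox share lay near the 5% that background alone gives in both genotypes. The difference of KO minus WT was 1.75 percentage points for Hox probes and -15.0 for all probes.

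In all, 25 of 342 pairs of Hox probe and array were detected (7.31%), against 42.0% of pairs over all probes. At a detection p below 0.01, where 1% is given by background, 9 Hox pairs remained (2.63%), against 36.0% of all pairs. No KO array and 1 WT array, WT A, had a Hox probe below 0.001. The median detection p of the Hox probes was 0.643, 0.442 and 0.526 on KO arrays A, B and C and 0.496, 0.450 and 0.417 on the WT arrays, around the middle of the range that background takes.

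Of the 57 probes, 41 were undetected on every array (71.9%), against 35.1% of all probes. Another 12 were detected on 1 array, 2 on 2 arrays, 1 on 4 and 1 on 5, and none on all 6, a class that held 20.3% of all probes. By gene, 24 of 38 were never detected. Of the 13 genes with several probes, only Hoxa9 (on WT A) and Hoxa13 (on KO A) had 2 probes detected on the same array.

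**Figure D2:**
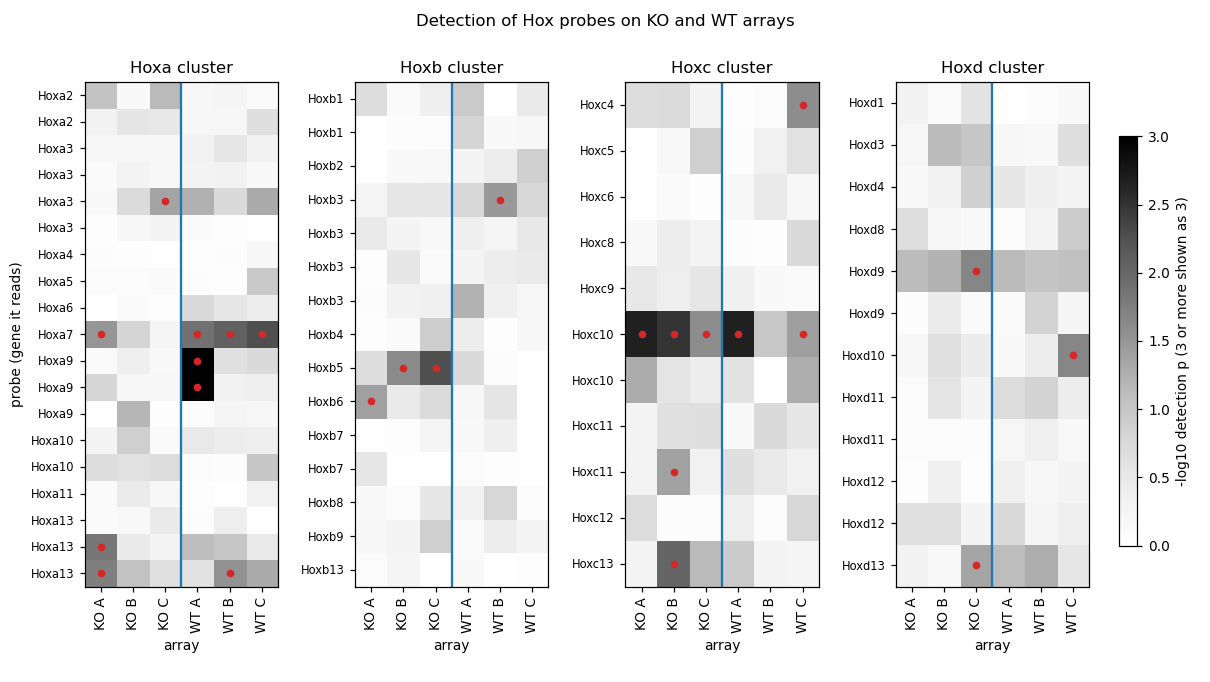
Detection of each Hox probe on the 3 KO and 3 WT arrays, by cluster, as −log10 of the detection p (darker is stronger). Red points mark a detection p below 0.05: 14 of 171 probe and array pairs in KO and 11 of 171 in WT, with the rows of Hoxa7 and Hoxc10 and the pair of Hoxa9 probes on WT A standing out.

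All 4 clusters had few detections. Hoxa probes were detected in 4 of 57 pairs in KO and 6 of 57 in WT, and Hoxb probes in 3 of 45 in KO and 1 of 45 in WT. Hoxc probes were detected in 5 of 33 pairs in KO and 3 of 33 in WT, and Hoxd probes in 2 of 36 in KO and 1 of 36 in WT. Genes with no detection on any array numbered 6 of 10 in Hoxa, 7 of 10 in Hoxb, 5 of 9 in Hoxc and 6 of 9 in Hoxd. By paralogue number, groups 1, 2, 8 and 12 had no detected probe at all. Groups 1 to 4, whose members pattern the hindbrain, were detected in 1 of 57 pairs in KO and 2 of 57 in WT. Groups 5 to 8 were detected in 4 of 36 pairs in KO and 3 of 36 in WT. Groups 9 to 13, related to the fly gene Abdominal-B and used in the hind trunk, limb and genital region, were detected in 9 of 78 pairs in KO and 6 of 78 in WT. Their median detection p was 0.395, against 0.542 for groups 1 to 4 and 0.650 for groups 5 to 8.

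The 16 probes with any detection stood for 14 genes. On KO arrays and no WT array, these were a probe each for Hoxa3 (KO C), Hoxb5 (KO B and C), Hoxb6 (KO A), Hoxc11 and Hoxc13 (both KO B), Hoxd9 and Hoxd13 (both KO C) and 1 of the Hoxa13 probes (KO A). On WT arrays and no KO array, they were Hoxb3 (WT B), Hoxc4 and Hoxd10 (both WT C) and 2 of the 3 Hoxa9 probes (WT A). Another Hoxa13 probe was detected on KO A and WT B, and Hoxa7 and Hoxc10 in both groups. Of the 16 probes, 12 were detected on 1 array each, and these calls carry no test of genotype.

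The brightness of the Hox probes was close to that of undetected probes. Their median scanner signal was 98.7, 103.7 and 97.7 linear units on KO arrays A, B and C, where the median undetected probe read 99.9, 102.7 and 97.7. On WT arrays A, B and C the Hox median was 109.2, 106.9 and 115.2, and the median undetected probe read 109.4, 106.5 and 114.1. Before any correction, 31 of the 57 Hox probes were lower on all KO arrays than on any WT array, beside 52.2% of all probes, and the undetected median was itself lower on every KO array than on any WT array. After subtracting each array's undetected median, the groups overlapped for 47 Hox probes, KO was lower without overlap for 8 (23.7% of all probes) and higher for 2 (3.84% of all probes). The mean then lay within 10 units of the undetected median for 55 of the 57 probes in KO and for 52 in WT.

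Hoxa7, a paralogue group 7 gene of the trunk axis, was detected in every WT embryo, by its only probe (ILMN_2621038). Its signal was 110.8, 108.3 and 97.2 units in KO embryos A, B and C, against 127.5, 131.1 and 136.8 in WT embryos. The detection p was 0.032, 0.158 and 0.577 in KO, against 0.0128, 0.0085 and 0.0053 in WT. KO A was thus detected and KO B and C were not. By scanner signal KO was lower without overlap, as for 52.2% of all probes. Above the undetected median of its array, the probe read 5.29 ± 5.73 units in KO and 21.8 ± 3.31 units in WT (SD, n = 3 each). On that scale KO was still lower without overlap, as for 23.7% of all probes. Detection on all 3 WT arrays was shared by 40.4% of all probes.

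The direction for Hoxa7 depended on the scale. After background correction and quantile normalisation the log2 values were 5.57, 4.85 and 4.41 in KO, against 4.79, 5.05 and 4.91 in WT. The groups then overlapped, with means of 4.94 ± 0.58 in KO and 4.92 ± 0.13 in WT (SD, n = 3 each). The log2 fold change was 0.03 (SE 0.39; adjusted p = 0.98, limma with Benjamini-Hochberg adjustment). It was -0.34 with median scaling, -0.11 when arrays were aligned by cyclic loess and -0.66 on unscaled arrays, and none of these passed the test.

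Hoxc10, a gene of the lumbar and hindlimb region, was detected in all KO embryos and in WT A and C by 1 of its 2 probes (ILMN_2836885). The signal was 119.7, 135.1 and 109.3 units in KO embryos A, B and C, against 138.5, 114.4 and 127.1 in WT embryos, so the groups overlapped. The detection p was 0.0021, 0.0032 and 0.0256 in KO, against 0.0021, 0.104 and 0.0385 in WT. Detection on all 3 KO arrays was shared by 21.0% of all probes. The other Hoxc10 probe (ILMN_2836888) was undetected on all 6 arrays.

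On the normalised log2 scale the detected Hoxc10 probe had 6.02, 6.23 and 5.63 in KO, against 5.07, 4.57 and 4.67 in WT. These groups did not overlap, which held for 27.6% of all tested probes. The log2 fold change was 1.19 (SE 0.33), with an unadjusted p of 0.010 and an adjusted p of 0.14 in the limma test. It did not pass the threshold of 0.05, and over the alternatives the fold change ran from 0.13 with no scaling to 2.40 on the authors' processed values, with adjusted p between 0.0821 and 0.823. Above the undetected median of its array, the probe read 21.2 ± 10.5 units in KO and 16.6 ± 11.1 units in WT (SD, n = 3 each).

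Hoxa9, known for its part in blood progenitors and in the trunk axis, was bright in 1 embryo. Its probe ILMN_1258462 read 97.1, 104.2 and 96.0 units in KO embryos A, B and C, against 201.9, 110.7 and 119.8 in WT embryos. A separate probe, ILMN_2645155, read 105.1, 101.9 and 96.4 in KO, against 185.1, 106.7 and 115.2 in WT. Both were high in WT A and undetected on the other 5 arrays, with bead standard errors on WT A of 7.80 and 5.08 units. The other Hoxa9 probe, ILMN_2772762, read 104.3 on WT A and was undetected there and elsewhere. The summed level of the leukocyte markers was 310, 868 and 255 in KO embryos A, B and C and 471, 668 and 348 in WT embryos, and that of the erythroid markers was 6577, 7256 and 7082 in KO and 1057, 918 and 778 in WT. WT A was thus the highest WT embryo for erythroid and not for leukocyte markers, and their part in the Hoxa9 signal was not tested. No Hoxa9 probe was detected on enough arrays to be tested.

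**Figure D3:**
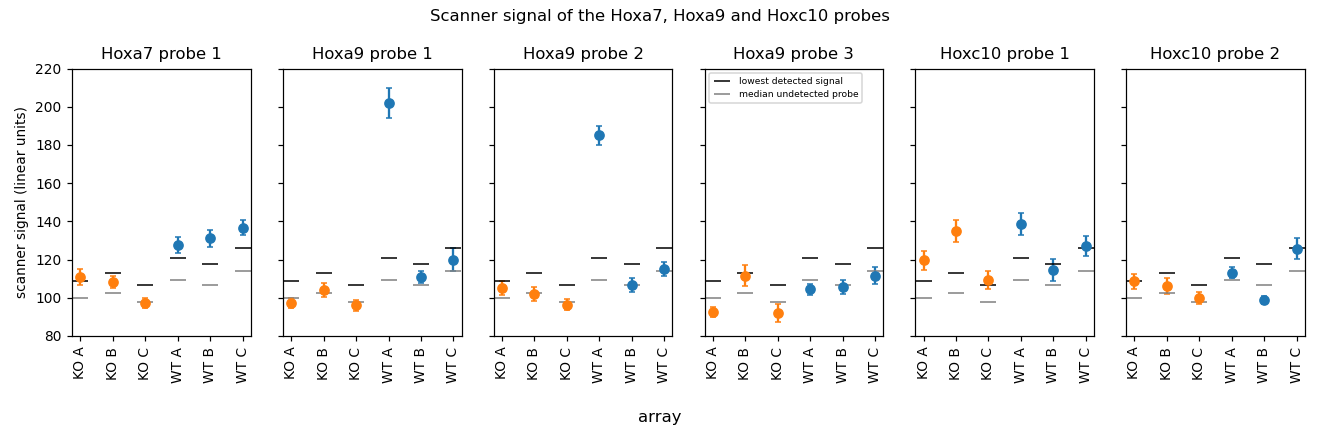
Scanner signal (linear units) of the probes for Hoxa7, Hoxa9 and Hoxc10 on the KO (orange) and WT (blue) arrays, with the bead standard error. Black dashes are the lowest detected signal and grey dashes the median undetected probe of each array; Hoxa7 lies above the black dash on all WT arrays, and 2 Hoxa9 probes stand apart on WT A.

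A Hoxd9 probe lay near the detection threshold, while a Hoxb5 probe passed it on 2 arrays. Hoxd9 (ILMN_1216475), a trunk and limb gene, had a detection p of 0.0748, 0.0620 and 0.0214 in KO and 0.0716, 0.0962 and 0.0855 in WT, low on every array but detected only on KO C. Above the undetected median it read 9.84 ± 2.42 units in KO and 9.09 ± 0.745 in WT (SD, n = 3 each). Its groups overlapped on that scale. By scanner signal KO was lower without overlap, beside 52.2% of all probes. On the normalised log2 scale KO was higher without overlap, beside 11.7% of all probes. The other Hoxd9 probe (ILMN_2800183) was undetected on all 6 arrays, with a log2 fold change of -0.0018 in limma with no filter. Hoxb5 (ILMN_1242977), which marks the neck and upper trunk, read 104.1, 116.1 and 113.5 units in KO, against 114.3, 101.9 and 104.6 in WT. It was detected on KO B and C. Its detection p was 0.206 on KO A and 0.192, 0.816 and 0.947 on the WT arrays.

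Detection on at least 3 of the 6 arrays, the filter for testing, was met by 46.1% of all probes and by 2 of the 57 Hox probes, Hoxa7 and Hoxc10. Hoxa7 passed mainly through the WT arrays. In the limma comparison of KO with WT, 2.06% of the 20853 tested probes were called at an adjusted p below 0.05, 0.623% higher and 1.43% lower in KO. Neither Hox probe was called, and 1 of the 2 (Hoxc10) had an unadjusted p below 0.05, as had 18.5% of all tested probes. With no filter, limma called none of the 57 Hox probes, and 4 had an unadjusted p below 0.05, beside 13.4% of all probes. These were 1 probe each of Hoxc10 (adjusted p = 0.082), Hoxd9 (log2 fold change 0.83, adjusted p = 0.075), Hoxb5 (1.06, adjusted p = 0.24) and Hoxa10 (0.35, adjusted p = 0.29). All 4 were higher in KO on the normalised scale. On that scale the groups overlapped for 48 of the 57 probes, KO was higher without overlap for 7 and lower for 2. Over every probe on the array, 11.7% were higher and 10.1% lower in KO without overlap on that scale.

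Leaving out 1 embryo changed single calls among the unfiltered probes. Without KO A, Hoxb5 (log2 fold change 1.39, adjusted p = 0.036) and Hoxd3 (0.78, adjusted p = 0.0497) were called. Without KO B, 1 of the 2 Hoxa2 probes was called (0.89, adjusted p = 0.034), and without KO C, 1 of the 2 Hoxd9 probes (0.69, adjusted p = 0.045). Without any 1 of the WT embryos no Hox probe was called. Each of these 4 genes was called in 1 setting only. The same unfiltered limma fits called 2.51%, 3.01% and 2.52% of all probes without KO A, B or C, and 0.232%, 0.364% and 0.307% without WT A, B or C. Among the 20853 filtered probes, the limma calls numbered 682, 640 and 651 without KO A, B or C, and 0 without WT A, B or C, with 2454, 2579 and 2471 probes at an unadjusted p below 0.05.

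The chromosomal setting of the clusters was read from the 4 nearest protein-coding genes with a probe on each side of each cluster. Here and in the lists below, a gene counted as detected on an array when any of its probes was. Of these 32 genes, 20 were detected on all KO arrays and 25 on all WT arrays, and 3 (Skap1, Mtx2 and Nfe2) on none. Of the 38 Hox genes, 1 was detected on all KO arrays and 1 on all WT arrays. The neighbours' probes were detected in 62.1% of pairs in KO and 77.3% in WT, beside 8.19% in KO and 6.43% in WT for Hox probes. Hibadh and Hnrnpa2b1 by Hoxa, Ube2z by Hoxb, Calcoco1 by Hoxc and Lnpk by Hoxd, the last known to lie in a landscape that holds Hoxd enhancers, were detected on all 6 arrays. No single probe of the 3 for Lnpk was detected on all KO arrays. Evx1 and Evx2, the homeobox genes at the tail ends of Hoxa and Hoxd, had few detections too: Evx1 was detected on no KO array and 1 WT array, and Evx2 on 1 KO array and no WT array. Among the neighbours' 49 tested probes, 1 was called, beside 2.06% of all tested probes. It was a probe of the base excision repair gene Smug1, with 5.36 ± 0.51 in KO and 8.40 ± 0.42 in WT on the log2 scale (SD, n = 3 each). Its log2 fold change was -3.04 (adjusted p = 0.029, limma). With 1 WT embryo left out, its adjusted p was 0.132 to 0.161. It was also above 0.05 with a trended robust variance (0.0573), array weights (0.0555) and the authors' processed values (0.0567). With no scaling the neighbours had 5 probes called lower, beside 3083 of all 20853 tested probes.

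**Figure D4:**
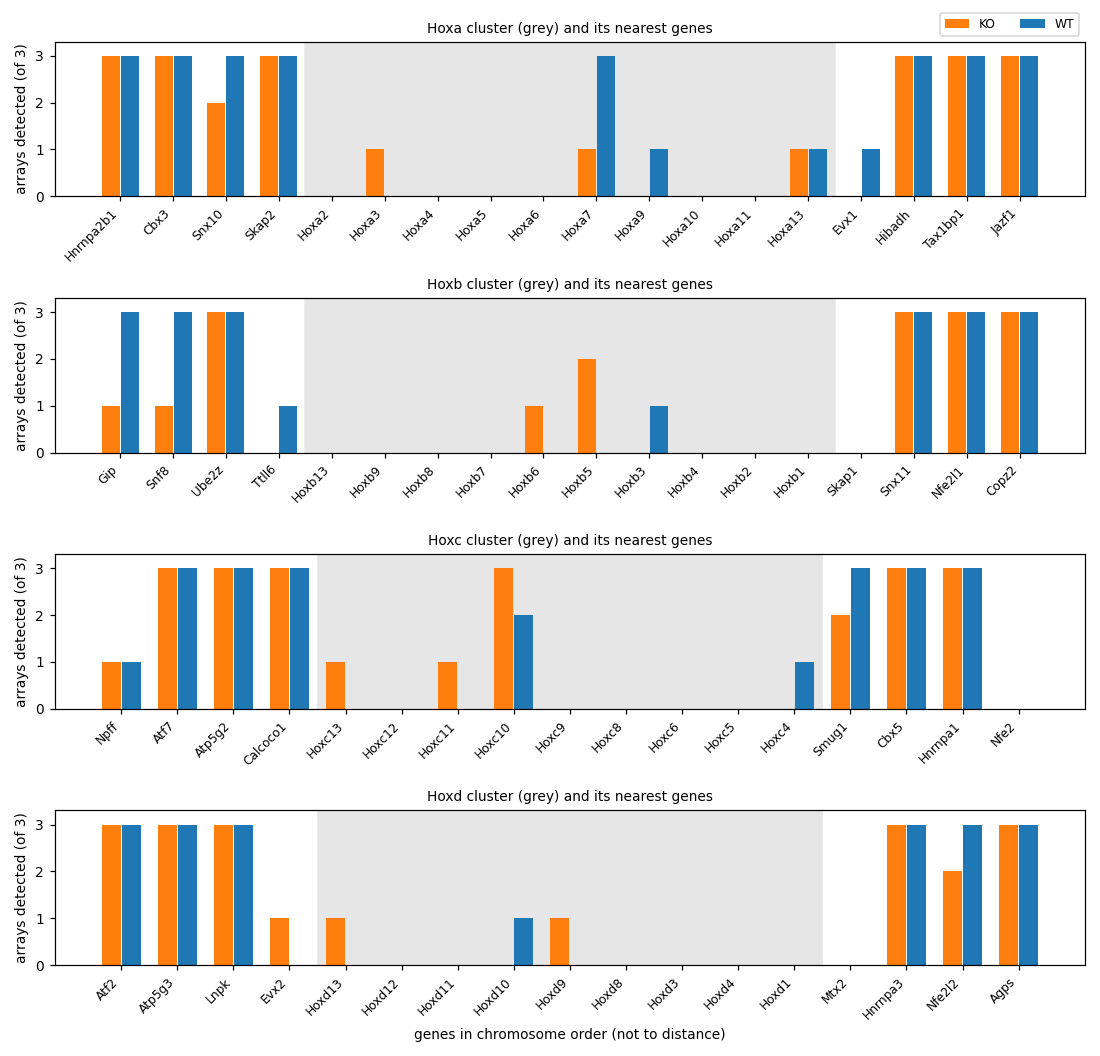
Arrays on which each gene was detected by any of its probes, KO (orange) and WT (blue), for the 4 clusters (grey) and the 4 nearest genes with probes on each side, in chromosome order. Most neighbours reach 3 arrays in both groups, while Hox genes mostly stand at 0.

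Of the clusters' non-coding transcripts, Hoxd3os1 and Hottip had probes. One probe of Hoxd3os1, antisense to Hoxd3, was detected on all KO arrays and no WT array, with log2 values of 5.45, 5.37 and 5.68 in KO, against 4.50, 4.44 and 4.29 in WT. The groups did not overlap, as for 27.6% of all tested probes, and this probe met the filter for testing only through the KO arrays. KO was at least 1.80-fold higher against the WT detection limit, but the change did not pass the limma test (log2 fold change 1.09, adjusted p = 0.12). Its other probe and that of Hottip, the transcript at the tail end of Hoxa, were undetected on all arrays.

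Transcripts of the proteins that work with or on the Hox clusters were detected. Among the TALE cofactors, 6 of 10 genes were detected on all KO arrays and 9 of 10 on all WT arrays. Of their 23 tested probes 2 fell, 0 rose and 21 were not called, beside 1.43% lower and 0.623% higher over all tested probes. The median log2 fold change was -0.82, or -0.64 with undetected probes at their bounds (all tested probes -0.10). A probe of Pknox2 (ILMN_3135037) was undetected in KO and at least 3.15-fold lower than in WT (adjusted p = 0.035, limma), while its other tested probe differed by 0.25 on the log2 scale (adjusted p = 0.80). A Meis1 probe was likewise undetected in KO (at least 3.15-fold lower, adjusted p = 0.044), but another Meis1 probe, ILMN_1218266, had log2 values of 10.03 ± 0.75 in KO and 10.93 ± 0.18 in WT (SD, n = 3 each), with adjusted p = 0.35. The called Meis1 and Pknox2 probes met the filter only through the WT arrays. Meis2, a cofactor gene of the eye, had 10.60 ± 0.17 in KO and 11.58 ± 0.11 in WT, a log2 fold change of -0.98 that did not pass (adjusted p = 0.15). Neither call held with any 1 WT embryo left out: the limma adjusted p was then 0.0934 to 0.220 for Meis1 and 0.165 to 0.197 for Pknox2, and for Meis1 it was 0.0583 to 0.0662 with 1 KO embryo left out. With cyclic loess the list had 0 calls, and with no scaling 6 probes were called lower, beside 3083 of all 20853 tested probes. The Meis1 call was also lost with no background correction (log2 fold change -1.13, adjusted p = 0.0855), with an offset of 50 (-1.62, adjusted p = 0.0729), and with a trended robust variance or array weights. The Pknox2 call was lost with a trended robust variance (limma adjusted p = 0.0735) and with the authors' processed values (0.122), where that of Meis1 passed (0.0239). Under the trended robust variance 2 other probes of the list were called lower, beside 166 of all 20853 tested probes. With no filter 3 were called lower, beside 520 of all 45281 probes. Without KO C 1 was called higher and 1 lower, beside 212 and 439 of all 20853.

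The Polycomb repressors, which keep Hox chromatin closed, were detected on all KO arrays for 15 of 21 genes and on all WT arrays for 17. None of their 32 tested probes was called, and their median log2 fold change was -0.30, or -0.20 with undetected probes at their bounds. At an unadjusted p below 0.05 limma had 7 of the 32, beside 18.5% of all tested probes. With median scaling 3 and with no scaling 8 were called lower, beside 1523 and 3083 of all 20853 tested probes. A probe of Ezh2, the histone methyltransferase of the complex, had 7.85 ± 0.80 in KO and 9.82 ± 0.21 in WT (SD, n = 3 each), a log2 fold change of -1.97 with adjusted p = 0.10. The other Ezh2 probes had log2 fold changes of -2.13 and 0.63, so they disagreed in direction. The Trithorax group, which opposes Polycomb, was detected for 11 of 11 genes in both genotypes. None of its 25 tested probes was called (median log2 fold change -0.27). Of the 25, 2 had an unadjusted p below 0.05 in limma, beside 18.5% of all tested probes. With no scaling 5 were called lower, beside 3083 of all 20853 tested probes. Limma gave a probe of Kmt2a, the Hox activator also called Mll, 7.23 ± 1.17 in KO and 9.04 ± 0.46 in WT, with adjusted p = 0.21, and its other probe a log2 fold change of -0.08.

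Upstream regulators of Hox expression included Cdx genes, retinoic acid receptors and enzymes that make or degrade retinoic acid. Of their 13 tested probes 2 rose, 0 fell and 11 were not called, beside 0.623% higher and 1.43% lower over all tested probes. Their median log2 fold change was -0.24, or -0.05 with undetected probes at their bounds. Gbx2, a homeobox gene of the anterior hindbrain, was undetected in WT and at least 9.38-fold higher in KO (adjusted p = 0.038, limma). Cyp26a1, which degrades retinoic acid, was undetected in WT and at least 4.76-fold higher in KO (adjusted p = 0.036, limma). The called Gbx2 and Cyp26a1 probes met the filter only through the KO arrays. A probe of Rarb, a retinoic acid receptor and target, was undetected in KO, without passing the test (adjusted p = 0.20). With 1 WT embryo left out, the limma adjusted p was 0.171 to 0.197 for Gbx2 and 0.166 to 0.197 for Cyp26a1, and without KO A or C it was 0.0563 and 0.0538 for Gbx2. Both calls were also lost with an offset of 50 (log2 fold change 2.31 for Gbx2, adjusted p = 0.0607, and 1.47 for Cyp26a1, adjusted p = 0.0521), with no background correction (1.65 for Gbx2 and 0.96 for Cyp26a1) and with a trended robust variance. The size of the bound thus holds for the offset of 16 used here.

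Homeobox genes that pattern the head and lie outside the clusters were read in the same RNA. Their probes were detected in 41.8% of pairs in KO and 41.2% in WT. Of 25 tested probes, 4 rose, 3 fell and 18 were not called, beside 0.623% higher and 1.43% lower over all tested probes. The median log2 fold change was 0.56. Six2 fell (at least 24.5-fold lower in KO, where it was undetected, adjusted p = 0.003), as did both Barx2 probes tested, one at 10.61 ± 0.17 in KO and 12.68 ± 0.06 in WT (log2 fold change -2.08, adjusted p = 0.030, limma). Dlx2 was undetected in WT and at least 19.7-fold higher in KO. A probe of Prrx1 was undetected in WT and at least 5.51-fold higher in KO, while other Prrx1 probes were detected in WT and not called. The called Dlx2 and Prrx1 probes met the filter only through the KO arrays, and that of Six2 only through the WT arrays. Probes of Alx4 and Dlx3 rose by 2.53 and 2.13 on the log2 scale. No call in this list held with any 1 WT embryo left out, where the limma adjusted p ran from 0.0556 (Six2) to 0.207 (Dlx3), and without KO B that of Dlx3 was 0.0502. The Prrx1 call was also lost with an offset of 50 (log2 fold change 1.66, adjusted p = 0.0531), no background correction (1.12, adjusted p = 0.0729) and a trended robust variance, and those of Alx4 and Dlx3 with array weights.

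**Figure D5:**
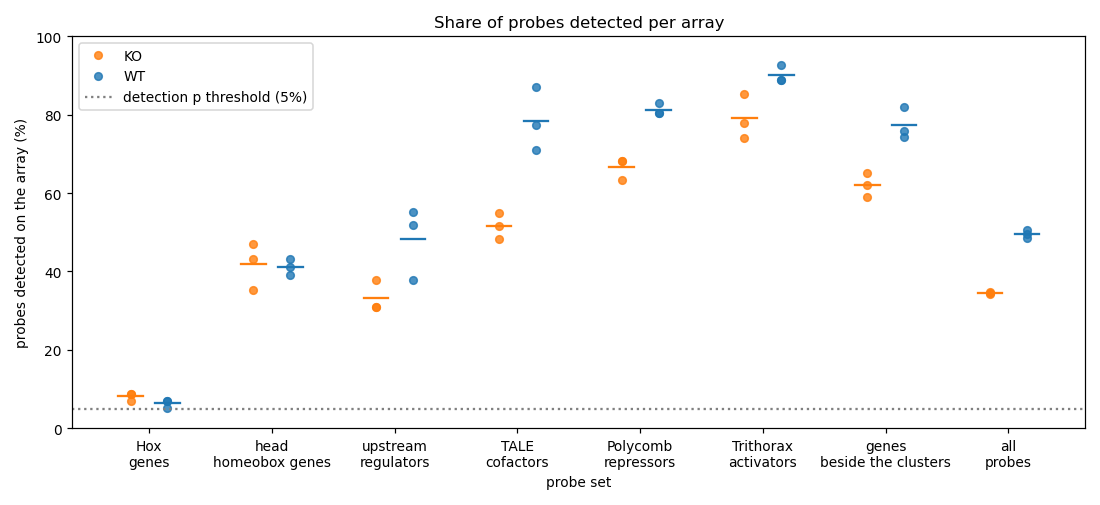
Share of probes detected on each KO (orange) and WT (blue) array for Hox genes, related gene lists and all probes, with group means as bars and the 5% detection threshold dotted. Hox probes lie between 5.26% and 8.77% on all 6 arrays, and every other set shown lies higher on each array.

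The RNA itself differed between groups in ways that touch these values. Of 10 surface ectoderm genes, 9 were detected on all KO arrays and 10 on all WT arrays. Their summed level was 12641 to 15343 in KO and 16757 to 18032 in WT, without overlap. Of 13 tested probes none was called by limma, and the median log2 fold change was -0.54. An unadjusted p below 0.05 was found for 4 of the 13, beside 18.5% of all tested probes. The summed level of periocular mesenchyme markers was 4619 to 6692 in KO and 2715 to 3117 in WT. Of their 16 tested probes 4 were called higher and 1 lower, beside 0.623% higher and 1.43% lower over all tested probes. The summed level of erythroid markers was 6577 to 7256 in KO and 778 to 1057 in WT. Of their 5 tested probes 3 were called higher by limma and 0 lower, with a median log2 fold change of 3.02, beside the same shares over all tested probes. Prrx1, named above, is itself on the mesenchyme list. Lens markers were detected in 12.5% of pairs in KO and 50% in WT, with a summed level of 182 to 602 in KO and 293 to 410 in WT, and leukocyte markers in 14.8% of pairs in KO and 37.0% in WT; neither list had a called probe. Endothelial markers were detected in 11.1% of pairs in KO and 7.41% in WT. Muscle markers were detected in 14.3% of pairs in each group, and retinal ones in 16.7% in KO and 8.33% in WT. No neuronal or Schwann cell probe was detected. The summed level of each of these lists was higher in KO without overlap, also that of the undetected neuronal list (155 to 181 in KO and 142 to 151 in WT). The part of these cells in the Hox, TALE and homeobox results was not tested, and in bulk RNA fewer cells of a type and less RNA per cell cannot be told apart. Fgfr2 was detected on all 6 arrays by 3 of its 4 probes, with log2 fold changes of 0.16, 0.68 and 0.86, and the remaining probe was detected on no KO array and on all WT arrays (log2 fold change -0.90, adjusted p = 0.28). Since the labels do not say which exons were removed, these probes do not check the genotype.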

How the data were processed

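Per the labels' protocols, fornical conjunctival epithelium was dissected from frozen sections of 6 embryos, and 1 embryo's RNA was amplified per array. The tissue labels were followed, although the extraction text names future lens tissue. The deposited table gives, per the file headers, an average intensity per probe on a linear scale with a bead standard error and a detection p-value, not normalised between arrays. GenomeStudio was used per the submitters' processing notes, with a version not given in the sources used here. As an alternative, the authors' processed intensity table, whose centring is unknown, was fitted too.

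Symbols came from the platform annotation, updated through gene identifiers; 34885 probes had 1 symbol, 18 several and 10378 none. Intensities were corrected and quantile normalised by limma's neqc (limma 3.58.1, R 4.3.3; background inferred from the detection p-values, offset 16, log2). The test took the 20853 probes detected (p below 0.05) on 3 or more arrays. KO was compared with WT by lmFit and eBayes with Benjamini-Hochberg adjustment over all of them, and fold changes are KO minus WT. A probe undetected on every array of a group has only a bound there, set on each array by the lowest detected signal or by its own signal where that is higher. Where tested, such a probe met the filter only through the arrays of the other group. Every value is per probe; probe sequences were not used, so cross-hybridisation between paralogues was not tested. List sums add background-corrected levels over probes. Each sample is 1 embryo, and the number of arrays limits the precision.

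The members and lists were chosen with earlier results of these data known. Named Hox probes are those called, those detected on all 3 arrays of a group and those that passed the filter, and other detected or near-threshold Hox probes were named after their values were seen. From the lists, called members and up to 4 others with the smallest p were open to naming. The other Meis1 probe, the neighbours listed by detection and the Fgfr2 probes were also named for their values or role. Alternatives changed the background correction, offset, scaling, filter, variance model, weights, probe choice, replicate block and embryos used. The fit was tested on simulated data. The replicate letters A, B and C did not pair the embryos (correlations of -0.02, -0.0073 and 0.00019 between deviations). No genome build is named in the files, and promoter coordinates are those of the RefSeq table. Genes with several promoter windows were counted by a single window. The Hox median and quartiles used the Hoxa10 window with 12 CG and the Hoxd11 window with 4 CG. The windows left out had more, 21 CG for Hoxa10 and 25 CG for Hoxd11. Plots were made in matplotlib 3.10.9 (Python 3.11.15).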

Additional observations from a re-analysis of the deposited data

How the results depend on the processing

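The count of Hox probes called stayed at 0 under every alternative that gave a value, except when the filter was dropped together with 1 embryo, which was chosen after seeing the data and gave 0 to 2. Apart from the fit with no filter, these alternatives tested at most 2 Hox probes. The replicate block and the filtered fits without a WT embryo called 0 of all 20853 probes, so the Hox count there could only be 0. Requiring detection on all 6 arrays left no Hox probe to test. The mean number of detected Hox probes was 1.33 in KO and 1.67 in WT at a detection p below 0.01, and 0 in KO and 0.333 in WT below 0.001. The log2 fold change of Hoxa7 changed sign with median scaling (-0.34), cyclic loess (-0.11), no scaling (-0.66) and the authors' processed values (-1.02), and ran from -0.29 to 0.29 with 1 embryo left out. That of Hoxc10 stayed positive and uncalled throughout. The median over all tested probes was -0.10, and moved to -0.52 after median scaling and -0.84 on unscaled arrays.

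The 429 calls over all probes became 889 with no filter, 265 with detection on all 6 arrays, 1650 with median scaling (1523 lower), 3190 with no scaling (3083 lower), 255 with a trended robust variance, 223 with array weights and 754 with the authors' values, and 0 to 682 with 1 embryo left out. Cyclic loess gave 288, of which 155 were lower. The replicate block gave 0 calls, with 2963 probes at an unadjusted p below 0.05 in limma; the letters share only a name. Of the 12 called list probes named, 0 passed without any 1 WT embryo or with the replicate block, 10 without each KO embryo, 6 with the trended robust variance, 8 each with no background correction, an offset of 50 and array weights, and 10 each with cyclic loess and the authors' values. The causes were not tested.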
